A study of Homo sapiens with 31 samples.

Results

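The mRNAs of 8 genes of cholesterol synthesis and its control, HMGCS1, IDI1, FDFT1, SQLE, LSS, DHCR7, INSIG1 and SREBF2, were followed in NALM-6 cells, a human B-cell precursor acute lymphoblastic leukemia (preB-ALL) line, with and without knockdown (KD) of XIAP, an inhibitor of apoptosis protein. The genes were taken by name from a table of 30667 Ensembl genes, and all 8 had 1 row each and passed the filter on low counts. The cells carried lentiviral vectors that express a microRNA-30 embedded short hairpin against XIAP (sh-XIAP) or a control hairpin directed against eGFP (sh-CTRL), driven by the EF1a promoter, described by the study as giving moderate KD, or the SFFV promoter, described as giving strong KD. Each construct was sampled 4, 10 and 13 days after transduction, giving 31 samples in 12 groups of 2 or 3. The groups are therefore EF1a/sh-CTRL, EF1a/sh-XIAP, SFFV/sh-CTRL and SFFV/sh-XIAP at each day, all from 1 cell line, and every sample, controls included, had been transduced. The sample labels describe culture in vitro, whereas the series' design text speaks of cells from murine bone marrow, and the labels were followed here.

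Cells make cholesterol from acetyl-CoA through mevalonate, isoprenoids, squalene and lanosterol. The pathway is run by SREBP-2, the product of SREBF2, a transcription factor that is made as a membrane protein of the endoplasmic reticulum and bound there to SCAP. When sterols are plentiful, INSIG proteins hold the SCAP complex in place, and when sterols fall, it moves to the Golgi, where proteases release the part that enters the nucleus and binds sterol regulatory elements. Because most enzyme genes of the pathway, INSIG1 and SREBF2 itself are targets, their mRNAs are a common readout of sterol demand, and growing leukemia cells draw on the pathway for membranes and isoprenoids.

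To show the sequence next to the gene starts, the 180 bases before the RefSeq start of 4 of the genes are printed 5′ to 3′ on the gene's strand, from GRCh38.p14. RefSeq promoters were matched for 6 of the 8 genes. The capitals mark the sterol regulatory element letters TCACNCCAC, searched on both strands, and the CCAAT box, the site of the NF-Y factor that commonly acts with SREBPs, which reads ATTGG on the other strand. The 4 regions are chr22:41832925-41833104 (plus strand) for SREBF2, chr5:43313413-43313592 (minus strand) for HMGCS1, chr7:155297698-155297877 (plus strand) for INSIG1 and chr21:46228775-46228954 (minus strand) for LSS.
SREBF2: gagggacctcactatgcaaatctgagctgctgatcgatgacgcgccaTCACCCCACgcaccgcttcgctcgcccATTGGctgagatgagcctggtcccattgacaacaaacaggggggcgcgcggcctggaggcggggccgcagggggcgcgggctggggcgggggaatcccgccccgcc
HMGCS1: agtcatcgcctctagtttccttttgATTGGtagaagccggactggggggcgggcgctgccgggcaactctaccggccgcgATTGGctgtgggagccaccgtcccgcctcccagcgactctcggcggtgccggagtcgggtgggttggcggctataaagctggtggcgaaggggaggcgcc
INSIG1: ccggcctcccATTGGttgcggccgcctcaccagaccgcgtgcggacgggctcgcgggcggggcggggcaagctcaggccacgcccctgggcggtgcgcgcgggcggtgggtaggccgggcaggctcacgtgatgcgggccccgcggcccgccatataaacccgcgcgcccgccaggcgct
LSS: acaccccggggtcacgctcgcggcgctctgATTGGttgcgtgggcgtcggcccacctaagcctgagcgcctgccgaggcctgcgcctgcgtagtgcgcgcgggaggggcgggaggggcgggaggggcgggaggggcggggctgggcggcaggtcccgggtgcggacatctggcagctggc
Within 250 bases before the start, the element's letters were found only in SREBF2 among the 6 genes, beginning at position -133. They were found in 0 of 13 other matched enzymes of the pathway. Of 27305 RefSeq genes, 1.09% held them in at least 1 of their promoter windows. Only this 1 form of the element was searched, so sites with other letters were missed. CCAAT was found in at least 1 window of 6 of 6 genes and of 10 of 13 other matched enzymes of the pathway, against 37.0% of all genes. HMGCS1 and DHCR7 have 2 windows each, IDI1 3 and the others 1, and counted by window CCAAT was in 7 of 10, against 32.0% of 35116. The 2 motifs do not overlap in the SREBF2 sequence. These matches describe letters only.

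The libraries held 312852 to 1153668 unique molecular identifiers (UMIs), with a median of 603822, and mitochondrial transcripts took 1.76% to 2.12% of them. The summed markers of B-cell precursors, 10 genes including PAX5, VPREB1 and IGLL1, lay between 4502 and 5217 CPM (UMIs scaled to a library total of 1000000) in all 31 samples. Markers of T cells (CD2), myeloid cells (CD14, MPO and LYZ) and erythroid cells (HBB) summed to at most 3.20, 25.6 and 5.29 CPM. The smallest library, SFFV/sh-XIAP day 10 replicate 2, also had the highest mitochondrial share and the highest T-cell and myeloid sums. It had the lowest summed level of the 8 genes (972 CPM). Fits without this library are given below, and the cause of its values was not tested. XIAP itself gave only 2 to 14 UMIs per sample, with medians of 10.5 CPM in SFFV/sh-CTRL and 8.15 CPM in SFFV/sh-XIAP at days 10 and 13, and the groups overlapped. Its log2 fold change under strong KD was -0.26 (SE 0.40, adjusted p = 0.975), under moderate KD -0.17 (SE 0.37, adjusted p = 0.994), and at day 4 it was 0.21 (SE 0.51) and 0.15 (SE 0.43). The KD was thus not detectable at the mRNA level at this depth, and XIAP gave no check of the labels.

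All 8 genes were expressed in every sample. Over the 31 samples, HMGCS1, the synthase that makes HMG-CoA at the entry to the mevalonate pathway, was measured at 267 ± 24.8 CPM (SD, n = 31). IDI1, the isomerase that interconverts the isoprenoid building blocks, was at 186 ± 19.1 CPM. FDFT1, which condenses farnesyl diphosphate to squalene, was at 157 ± 15.9 CPM, and SQLE, which oxidises squalene, at 59.3 ± 8.95 CPM. LSS, which closes the ring to lanosterol, was at 59.3 ± 11.3 CPM. DHCR7, a reductase at the end of the pathway, was at 105 ± 12.8 CPM. The regulators INSIG1 and SREBF2 were at 198 ± 17.3 and 170 ± 21.5 CPM. CPM here counts captured 3′ ends, 1 UMI per molecule, and was not divided by transcript length, so values were compared between samples and not ranked between genes.

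The levels lay in a narrow band. The highest of the 12 group means exceeded the lowest by 1.21 times (INSIG1 and HMGCS1) to 1.41 times (SREBF2). SREBF2 was highest in EF1a/sh-CTRL at day 13 (191 ± 12.4 CPM, n = 3) and lowest in EF1a/sh-XIAP at day 4 (135 ± 15.2 CPM, n = 2). DHCR7 was highest in SFFV/sh-XIAP at day 4 (126 ± 17.0 CPM, n = 2) and lowest in EF1a/sh-XIAP at day 10 (92.5 ± 3.79 CPM, n = 2). These extremes were picked from 12 groups and carry no test.

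**Figure D1:**
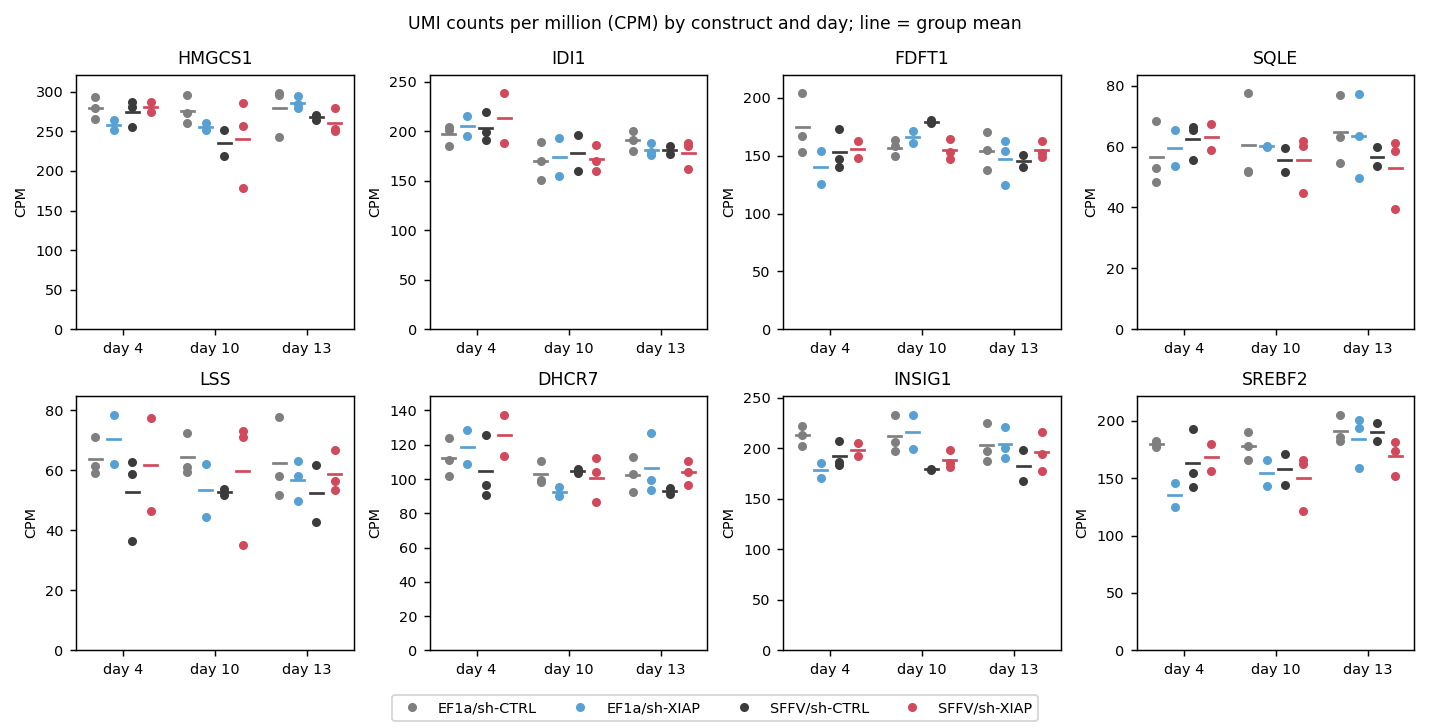
CPM (y axis, linear from 0) of the 8 genes in each of the 31 samples, by day (x axis) and construct (colour), with the group mean as a line. The days overlap in every panel, and IDI1 sits lower at day 10 (median 170 CPM) than at day 4 (median 200.2 CPM).

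The spread among samples of a group was close to that of counting. The genes rested on 11 to 322 UMIs per sample, for which counting alone gives a coefficient of variation of 30.2% (LSS at 11 UMIs) to 5.57% (HMGCS1 at 322 UMIs). The chi-square of the counts within groups per degree of freedom was 0.704 for INSIG1, the lowest, and 1.46 for LSS, the highest, against a median of 1.07 over 7910 genes with a mean of at least 20 CPM. A value of 1 is what counting alone would give. Over the same 7910 genes the quartiles were 0.85 and 1.34, so INSIG1 and LSS lay outside them. PCR duplicates were collapsed by the UMIs. The coefficients of variation cover counting error only, whereas the chi-square takes in all spread among the samples of a group.

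The main question was whether strong KD of XIAP shifted the pathway at days 10 and 13, when the study compared sorted cells. None of the 8 genes passed an adjusted p of 0.25, the study's threshold, against 0.0792% of all genes tested (14 of 17683, and 2 to 45 when 1 library was left out). None had an unadjusted p under 0.05, and edgeR and DESeq2 also called 0 of 8. In such bulk samples of 1 cell line, a lower level in every cell and a loss in part of the cells cannot be told apart. Of the genes, 4 were higher and 4 lower in SFFV/sh-XIAP than in SFFV/sh-CTRL, with a median log2 fold change of -0.01 against -0.02 over all genes tested. The log2 fold changes ranged from -0.11 (SREBF2) to 0.17 (LSS), and the 95% intervals reached from 0.762-fold (SQLE) to 1.45-fold (LSS).

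HMGCS1 measured 252, 219, 265 and 270 CPM in the 4 SFFV/sh-CTRL samples and 179 (lowest), 255 (median) and 286 CPM (highest) in the 6 SFFV/sh-XIAP samples. The lowest value, 179 CPM, came from replicate 2 of day 10, the smallest library, which was the lowest of the 6 for 6 of the 8 genes and the lowest of all 31 for HMGCS1, LSS, DHCR7 and SREBF2. Without it, 0 of 8 genes passed, 6 were higher and 2 lower under strong KD (SQLE and IDI1 turned to 0.01 and 0.00), and the median log2 fold change was 0.04 against 0.01 over all genes. The log2 value of LSS was then 0.27 (SE 0.17, adjusted p = 0.839) and that of HMGCS1 0.07. With it included, the HMGCS1 values of the controls lay inside the range of the KD samples, and the log2 fold change was 0.01 (95% interval -0.17 to 0.18).

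IDI1 measured 160, 196, 185 and 177 CPM in SFFV/sh-CTRL and 160, 177 and 188 CPM (lowest, median and highest) in SFFV/sh-XIAP, which overlapped almost fully. FDFT1 measured 178, 181, 151 and 140 CPM in SFFV/sh-CTRL and 147, 153 and 165 CPM in SFFV/sh-XIAP. The KD samples lay inside the range of the controls, and the fold was 0.955 (95% interval 0.833 to 1.09).

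SQLE measured 51.8, 59.6, 59.8 and 53.6 CPM in SFFV/sh-CTRL against 39.6, 59.3 and 62.0 CPM in SFFV/sh-XIAP. LSS measured 51.8, 53.8, 42.7 and 61.9 CPM against 35.2, 61.5 and 73.1 CPM. For both, the controls fell within the KD range. DHCR7 measured 104, 106, 91.1 and 94.9 CPM against 86.3, 104 and 112 CPM, again with the controls inside.

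INSIG1, the sterol-dependent brake, measured 180.1, 179, 168 and 198 CPM in SFFV/sh-CTRL and 178, 190.2 and 216 CPM in SFFV/sh-XIAP, a fold of 1.04 (95% interval 0.914 to 1.19). SREBF2 measured 144, 171, 182 and 198 CPM in SFFV/sh-CTRL and 121, 164 and 182 CPM in SFFV/sh-XIAP, a fold of 0.925 (95% interval 0.802 to 1.07). Both regulators overlapped between the groups.

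Moderate KD also gave no call. At days 10 and 13, 0 of 8 genes passed between EF1a/sh-XIAP (n = 5) and EF1a/sh-CTRL (n = 6), against 0.017% of all genes, with log2 fold changes from -0.14 (SREBF2) to 0.03 (SQLE) and 0 genes at an unadjusted p under 0.05. SREBF2 measured 143 to 201 CPM in EF1a/sh-XIAP (median 166) and 166 to 205 CPM in EF1a/sh-CTRL (median 184), so that the groups overlapped. The difference between the effects of strong and moderate KD was tested directly and passed for 0 of 8 genes (background 0.00566%, 0 genes at an unadjusted p under 0.05). The widest difference was that of LSS, a log2 value of 0.28 with a 95% interval from -0.21 to 0.77, so that a difference of up to 1.71-fold was not excluded for this gene. edgeR and DESeq2 called 0 of 8 in both comparisons.

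The control constructs were compared to see what the promoter alone did. Between SFFV/sh-CTRL and EF1a/sh-CTRL at days 10 and 13, 0 of 8 genes passed (background 0.00566%, 0 genes at an unadjusted p under 0.05, 0 by edgeR and DESeq2). The median log2 fold change was -0.11, against 0.02 over all genes, and 6 of 8 genes were lower with SFFV. INSIG1 had the smallest p: it measured 188 to 234 CPM in EF1a/sh-CTRL (median 202) and 168 to 198 CPM in SFFV/sh-CTRL (median 179), a log2 fold change of -0.19 (SE 0.10, unadjusted p = 0.0574, adjusted p = 0.923). The 2 groups of INSIG1 values overlapped.

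**Figure D2:**
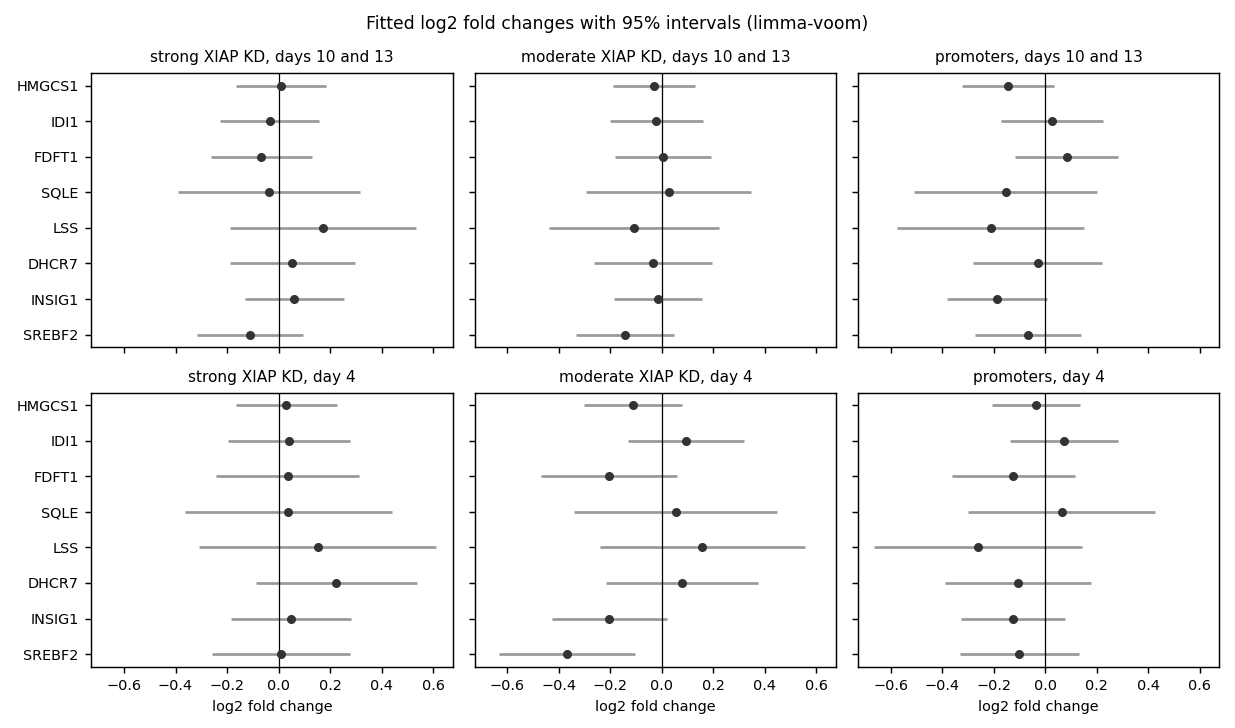
Log2 fold changes (x axis) of the 8 genes (y axis) with 95% intervals from limma-voom, for strong KD, moderate KD and the promoters (SFFV/sh-CTRL against EF1a/sh-CTRL), at days 10 and 13 (top) and day 4 (bottom). Every interval crosses 0 except that of SREBF2 under moderate KD at day 4, from -0.63 to -0.11, which did not pass the adjusted threshold.

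At day 4, with 2 samples per KD group and 3 per control group, 0 of 8 genes passed under strong KD (background 0.0109%), moderate KD (0.0491%) or between the promoters (0.0164%), and edgeR and DESeq2 called 0 of 8 in each. Under strong KD all 8 log2 fold changes lay above 0, from 0.01 (SREBF2) to 0.22 (DHCR7), with a median of 0.04 against 0.00 over all genes, and 0 of 8 had an unadjusted p under 0.05. DHCR7 measured 126, 90.9 and 96.7 CPM in SFFV/sh-CTRL and 114 and 138 CPM in SFFV/sh-XIAP, so the groups overlapped. Between the promoters, log2 fold changes ran from -0.26 (LSS) to 0.07 (IDI1), with 0 genes at an unadjusted p under 0.05.

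Under moderate KD at day 4, SREBF2 was the 1 gene of 8 with an unadjusted p under 0.05. It measured 180.02, 182 and 177 CPM in EF1a/sh-CTRL and 124 and 146 CPM in EF1a/sh-XIAP. Both KD samples lay below all 3 controls, which carries little weight with 2 samples against 3. How many of all genes separate in this way was not counted. The fold for SREBF2 was 0.775 (95% interval 0.646 to 0.929). The unadjusted p of SREBF2 by limma-voom was 0.00695, yet its adjusted p was 0.976, and 826 of all genes tested reached an unadjusted p under 0.05. At days 10 and 13 the fold for SREBF2 in the same comparison was 0.905 (95% interval 0.793 to 1.03).

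Between days, IDI1 was the 1 member that passed. Day 10 against day 4, averaged over the 4 constructs, called 1 of 8 genes, IDI1, which fell, against 0.294% of all genes (52 of 17676, and 13 to 61 when 1 library was left out). IDI1 measured 185 (lowest), 200.2 (median) and 238 CPM (highest) in the 10 samples of day 4 and 151, 170 and 196 CPM in the 10 samples of day 10. Of the day 10 samples, 6 of 10 lay below every day 4 sample, although the ranges overlapped. The day 10 mean of IDI1 was lower than the day 4 mean in 4 of 4 constructs. The same held for HMGCS1, which was not called. These counts come from the values that gave the call, and their share over all genes was not counted.

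The fold for IDI1 was 0.834 (95% interval 0.763 to 0.911; log2 fold change -0.26, SE 0.06, adjusted p = 0.116 by limma-voom and 0.0747 by edgeR). DESeq2 gave an adjusted p of 0.9995. At day 13 IDI1 measured 162, 185 and 201 CPM in 11 samples, and against day 4 the log2 fold change was -0.16 (SE 0.06, unadjusted p = 0.0075), which did not pass (adjusted p = 0.553).

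The call for IDI1 depended on which libraries were kept: it held in 26 of the 31 fits that left out 1 library and was lost in the rest. Without the smallest library it held (adjusted p = 0.148). The adjusted p was 0.337 without EF1a/sh-XIAP day 4 replicate 2, 0.434 without SFFV/sh-XIAP day 4 replicate 3, 0.269 without EF1a/sh-CTRL day 10 replicate 1, 0.413 without SFFV/sh-CTRL day 10 replicate 1 and 0.495 without EF1a/sh-XIAP day 10 replicate 1. Depth moved with the days: the median library held 751952 UMIs at day 4, 482267 at day 10 and 603822 at day 13. With counts thinned to the smallest library the log2 fold change was -0.13 (adjusted p = 0.92), and with depth as a covariate it was -0.24 (adjusted p = 0.372).

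HMGCS1 and DHCR7 also had an unadjusted p under 0.05 between days 10 and 4, without passing. DHCR7 measured 90.9, 112 and 138 CPM at day 4 and 86.3, 102 and 112 CPM at day 10, with a log2 fold change of -0.22 (SE 0.08, adjusted p = 0.587). At day 13 it measured 91.1, 99.5 and 127 CPM, a log2 value of -0.21 against day 4 (SE 0.08, adjusted p = 0.596). HMGCS1 measured 252, 277 and 293 CPM at day 4, and 179, 259 and 296 CPM at day 10, with a log2 fold change of -0.12 (SE 0.06, adjusted p = 0.716). Against day 4, HMGCS1 at day 13 differed by a log2 value of 0.00 (95% interval -0.10 to 0.10).

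SREBF2 ran the other way in its values. It measured 124, 167 and 193 CPM at day 4, 121, 166 and 190.3 CPM at day 10, and 152, 183 and 205 CPM at day 13. From day 4 to day 13 the mean went from 180 to 191 CPM in EF1a/sh-CTRL and from 135 to 184 CPM in EF1a/sh-XIAP. In SFFV/sh-CTRL it went from 163 to 190 CPM. In SFFV/sh-XIAP it hardly changed, from 168 ± 16.7 to 169 ± 15.3 CPM (n = 2 and 3). The log2 fold change was 0.18 against day 4 (SE 0.06, unadjusted p = 0.00883, adjusted p = 0.573) and 0.17 against day 10 (SE 0.07, unadjusted p = 0.0128, adjusted p = 0.983). The days overlapped. Day 13 against day 4 called 0 of 8 genes (background 0.43%, 3 genes at an unadjusted p under 0.05), and day 13 against day 10 called 0 of 8 (background 0.0452%, 1 gene at an unadjusted p under 0.05). edgeR and DESeq2 called 0 of 8 in both. The comparisons between days share samples.

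**Figure D3:**
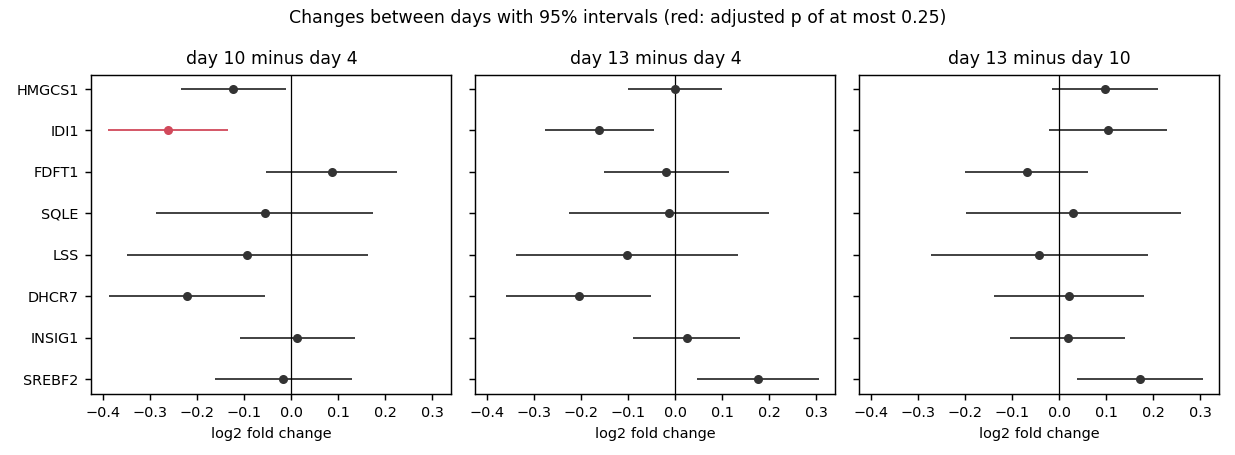
Log2 fold changes between days (x axis), averaged over constructs, with 95% intervals for the 8 genes (y axis). IDI1 at day 10 against day 4, in red, is the only value with an adjusted p of at most 0.25.

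A test of whether the constructs differed in their time course, over the 6 interaction terms, called 0 of 8 genes against 0.221% of all genes (0 genes at an unadjusted p under 0.05, 0 by edgeR and DESeq2). The smallest adjusted p was that of INSIG1, at 0.859.

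Pairs of the 8 genes had mostly low correlations. Over the 31 samples, the Pearson correlation between pairs of genes on log2 CPM ran from -0.17 (INSIG1 and IDI1) to 0.64 (DHCR7 and IDI1), with a median of 0.19 over 28 pairs. With group means removed the range was -0.19 to 0.69, the highest for SREBF2 and DHCR7, and the median again 0.19. All values share the libraries and their depths, and at these UMI numbers a weak correlation is not read as a finding. The genes whose levels followed the mean of the 8 most closely over the 31 samples were RPS10P3 (r = 0.72), P3H1 (r = 0.70), IRF2BP2 (r = 0.69), EEF1A1 (r = 0.68) and ZNRF1 (r = 0.68), none of them in the lists of the pathway.

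The rest of the pathway was read from lists of other enzymes, SREBP control, cholesterol uptake and trafficking, LXR and efflux, and fatty acid synthesis. None of their 45 tested genes passed in any of the 11 comparisons by limma-voom, edgeR or DESeq2, with 0 (strong KD and promoters at day 4) to 6 genes (strong KD at days 10 and 13) at an unadjusted p under 0.05. FDPS, which makes farnesyl diphosphate, measured 239 to 345 CPM over the 31 samples (median 296). HSD17B7, an enzyme of the late steps, ranged from 0 to 25.6 CPM.

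**Figure D4:**
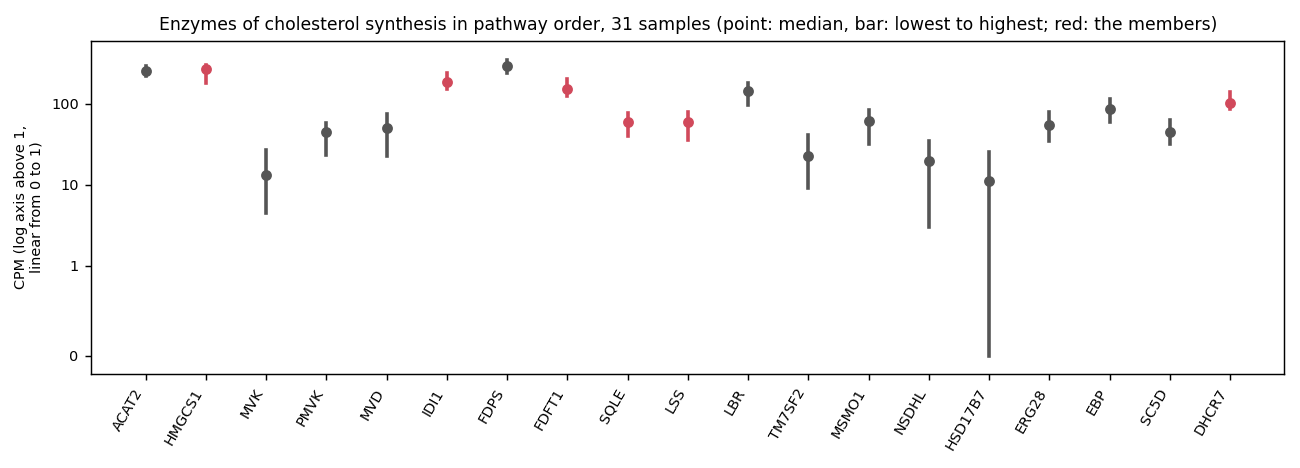
CPM of 19 enzymes of the pathway in their order (x axis) over 31 samples, with the median as a point and the lowest to highest value as a bar; the y axis is logarithmic above 1 CPM and linear from 0 to 1, and the genes described here are in red. HSD17B7 reaches down to 0 CPM, and CPM is not scaled by length.

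Under strong KD at days 10 and 13, 5 of 14 other enzymes had higher and 9 lower values (median log2 fold change -0.04, 0 at an unadjusted p under 0.05). The SREBP control genes split 4 and 4 (median 0.04). MBTPS1, the protease that makes the first cut in SREBPs, measured 12.4 to 19.9 CPM in SFFV/sh-CTRL (median 14.6) and 19.2 to 37.4 CPM in SFFV/sh-XIAP (median 28.2), a log2 fold change of 0.91 (SE 0.30, adjusted p = 0.595) on 27 and 136 UMIs. SCAP, the escort of SREBPs, measured 36.0 to 65.5 CPM and 62.3 to 85.7 CPM, a log2 value of 0.42 (SE 0.18, adjusted p = 0.803). Both had slightly overlapping groups.

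Among genes of uptake and trafficking, 2 of 8 had higher and 6 lower values under strong KD (median -0.13). STARD4, a sterol carrier, had a log2 fold change of -0.45 (SE 0.16, adjusted p = 0.717), with 56.3 to 80.7 CPM in SFFV/sh-CTRL and 43.7 to 67.1 CPM in SFFV/sh-XIAP. Its values in EF1a/sh-CTRL at the same days, 40.8 to 63.3 CPM, overlapped both. Of the fatty acid genes, 4 of 10 had higher and 6 lower values (median -0.06). ACSS2, an acetyl-CoA synthetase, had a log2 fold change of -0.74 (SE 0.32, adjusted p = 0.813). It measured 15.4 to 37.1 CPM in SFFV/sh-CTRL, 9.11 to 28.8 CPM in SFFV/sh-XIAP and 7.75 to 30.5 CPM in EF1a/sh-CTRL. ELOVL6, a fatty acid elongase, measured 32.7 to 37.1 CPM in SFFV/sh-CTRL and 43.7 to 54.8 CPM in SFFV/sh-XIAP. Its log2 fold change was 0.51 (SE 0.20, adjusted p = 0.768). These groups did not overlap, but EF1a/sh-CTRL at the same days, at 30.7 to 62.9 CPM, spanned both. How many of all genes separate in this way was not counted.

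The LXR and efflux genes, the arm that exports cholesterol, had higher values in 5 of 5 under strong KD, with a median log2 fold change of 0.34 against -0.02 over all genes, and lower values in 5 of 5 with SFFV/sh-CTRL against EF1a/sh-CTRL, with a median of -0.35 against 0.02. Both comparisons use the same 4 SFFV/sh-CTRL samples, with opposite sign. None had an unadjusted p under 0.05 in either, and ABCA1, the main efflux pump, rested on 10 UMIs in those controls and 37 UMIs in SFFV/sh-XIAP.

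Between days, the values with the smallest p in the other lists also missed the threshold. At day 10 against day 4, OSBP, an oxysterol-binding lipid carrier, had a log2 fold change of -0.24 (adjusted p = 0.651), SOAT1, which esterifies cholesterol, -0.25 (SE 0.16, adjusted p = 0.834), and HSD17B7 -0.45 (SE 0.32, adjusted p = 0.858, and -0.16 by edgeR) on 94 UMIs at day 4 and 60 at day 10, while NSDHL had 0.39, MSMO1 0.14 and SREBF1, the sister gene of SREBF2, 0.13. At day 13 against day 4, OSBP had -0.23 (adjusted p = 0.597), PMVK -0.24 and TM7SF2 -0.28, and FADS1 had 0.17, LIPA 0.37 and SCD 0.09. OSBP measured 60.9, 85.2 and 99.2 CPM (lowest, median and highest) at day 4, 54.3, 67.6 and 83.9 CPM at day 10 and 48.8, 72.4 and 85.0 CPM at day 13, and the days overlapped.

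By GENCODE 29 on GRCh38, the protein-coding genes lie at chr5:43289395-43313512 (HMGCS1), chr10:1039152-1049170 (IDI1), chr8:11795573-11839309 (FDFT1), chr8:124998497-125022283 (SQLE), chr21:46188141-46228824 (LSS), chr11:71428193-71452868 (DHCR7), chr7:155297776-155310235 (INSIG1) and chr22:41833079-41907308 (SREBF2). Antisense genes overlap HMGCS1 (AC114947.2, 1841 UMIs beside 5543), DHCR7 (AP002387.1, 734 beside 2217), SREBF2 (SREBF2-AS1, 134 beside 3494) and IDI1 (IDI2-AS1, 62 beside 3879). The sources used here do not say whether strand was used in the counting, and without it reads of a gene and its antisense partner cannot be told apart. The pseudogene IDI1P1 had 31 UMIs in all, and reads that fit both it and IDI1 make either count uncertain.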

How the data were processed

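NALM-6 cells with 4 constructs at 3 days were profiled by prime-seq, a bulk-adjusted SCRB-seq protocol. UMI counts per Ensembl gene, whole and not normalized, were what the authors deposited. The submitters' processing notes name STAR 2.6.0a and the builds GRCh38 (hg38) and GRCm38 (mm10), with no role given, and no counter or annotation is named in the sources used here. Symbols were matched for 23863 of 30667 identifiers. Samples were grouped by their descriptions, and the samples that the study left out as outliers are not identified there, so all 31 were kept. CPM scales a sample's UMIs to a total of 1000000.

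Genes over 1 CPM in at least 1/3 of a fit's samples were normalized by TMM (edgeR 4.0.16) and tested with limma-voom (limma 3.58.1, R 4.3.3) and Benjamini-Hochberg adjustment over all genes tested. Genes with adjusted p <= 0.25 were called. The 21 samples of days 10 and 13 were fitted with construct and day, the 10 samples of day 4 with construct, and all 31 with 12 groups for changes from day 4. Scripts were tested on simulated data. The alternatives were edgeR's quasi-likelihood test, DESeq2 1.42.0, other normalizations, filters and thresholds, thinned counts, a depth covariate, a replicate block and each sample left out in turn. Replicates are samples numbered in the labels, nothing says that they came from separate cultures, and p-values may measure technical spread.

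The 8 genes and the other lists were chosen with earlier results of these data known. Named were all 8 genes, any listed gene past the threshold, otherwise those with the 3 smallest p-values among higher and among lower genes in strong KD at days 10 and 13 and in both comparisons with day 4, and the 5 genes of at least 20 CPM most correlated with the mean of the 8. FDPS, HSD17B7, ABCA1 and XIAP were named besides, and some genes of the lists are not reported here by name. CYP51A1 and ME1 were not analysed here.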

Additional observations from a re-analysis of the deposited data

Results flagged for a closer look

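Outliers were sought among the 4 to 6 samples of each construct at days 10 and 13. This was done for each of the 8 genes and for their summed CPM. The gap of the highest or lowest sample to its neighbour was divided by the group's range and set against Dixon's 95% critical value. Of 36 such groups, 3 passed, and chance gives about 1 in 20. HMGCS1 in SFFV/sh-XIAP at days 10 and 13 had a ratio of 0.6671, from replicate 2 of day 10 at 179 CPM (56 UMIs). DHCR7 in EF1a/sh-XIAP at days 10 and 13 had a ratio of 0.7388, from replicate 2 of day 13 at 127 CPM (70 UMIs). The summed CPM of the 8 genes in EF1a/sh-XIAP at days 10 and 13 had a ratio of 0.7372, from the same sample at 1309 CPM, of which DHCR7 is a part.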

How the results depend on the processing

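The number of the 8 genes called was unchanged under every alternative run in 10 of 11 comparisons. In day 10 against day 4, where limma-voom called 1, the count was 0 with DESeq2, 0 with counts thinned to the smallest total, 0 with log2 total UMIs as a covariate, 0 at an adjusted p of 0.1 and 0 at 0.05, and 3 (HMGCS1, IDI1 and DHCR7) with no filter on low counts, a fit that called 8258 genes in all. Leaving out each sample in turn gave 0 to 1, and the call held in 26 of 31 fits. The log2 fold change of IDI1 lay between -0.30 and -0.22 over these fits and between -0.29 and -0.13 over the other settings, with no change of direction. The cause was not tested.

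Samples sharing a number showed no shared deviation (mean correlation 0.0001 over 149 pairs). The spread within groups was close to counting, so this measure could miss a weak pairing, and pairing was not excluded. With the replicate block, 1 of the 8 genes was called in day 10 against day 4 and 0 in the others. Over all genes tested under strong KD, those at an unadjusted p under 0.05 by limma-voom went from 868 to 937 at day 4. At days 10 and 13 they went from 988 to 967. Without the 2 libraries under 320000 UMIs, a choice made after seeing the data, the counts of the 8 genes called were the same in the 8 comparisons that hold those libraries. Counts over all genes moved more: 14 for strong KD at days 10 and 13 became 0 with DESeq2 and 49 with edgeR, 2 for strong KD at day 4 became 25 with the replicate block, 52 for day 10 against day 4 became 10 with DESeq2, and 76 for day 13 against day 4 became 20. Leaving out 1 library moved them too. Strong KD at days 10 and 13 gave 2 in the fit that lacked SFFV/sh-CTRL replicate 1 of day 10, 2 in the fit that lacked replicate 2 of day 13 of that construct, and 45 without SFFV/sh-XIAP day 10 replicate 2. Day 10 against day 4 gave 13 without EF1a/sh-XIAP day 10 replicate 1 and 61 without EF1a/sh-CTRL day 4 replicate 2, and day 13 against day 4 gave 21 without SFFV/sh-CTRL day 13 replicate 2 and 92 without EF1a/sh-CTRL day 4 replicate 2. Without both libraries under 320000 UMIs the counts over all genes were 42 for strong KD at days 10 and 13 and 22 for day 10 against day 4. At 11 to 322 UMIs per gene and sample, folds inside the intervals given were not resolved.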
